A study of Procambarus clarkii with 12 samples.

Results

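The libraries compared here are RNA-seq of the hepatopancreas of male red swamp crayfish (*Procambarus clarkii*) held for 72 h with 5 mg/L cadmium, set against those held with 2 mg/L cadmium. Libraries were taken by their titles: 3 at 5 mg/L and 3 at 2 mg/L, 6 of the 12 in the series. The 3 libraries of animals without cadmium serve only to say which of the doses departs from the unexposed level. The 3 libraries at 10 mg/L entered the model that estimates the spread. All animals were exposed through the same span, and the labels give no genotype, strain or age and do not say whether a library is 1 animal or a pool. P-values therefore measure the spread between these libraries, which may be technical. Each file lists 176325 gene clusters, groups of assembled transcripts, by identifiers that are paired with no gene name. None of the identifiers (0) matched the 46475 genes of the RefSeq table of assembly FALCON_Pclarkii_2.0, so no marker of the hepatopancreas or of another cell type could be looked up, and clusters are described by level, length and pattern.

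The hepatopancreas is the digestive gland of crustaceans. It secretes digestive enzymes, absorbs and stores nutrients, and is a main site where metals taken up from water and food accumulate. Cadmium is a toxic metal with no known nutritional use in animals. In animal cells it binds thiol groups, including those of the metal-binding metallothioneins and of glutathione, and exposure is known for oxidative stress. In whole tissue, fewer cells of a type and less RNA per cell cannot be told apart.

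Total estimated counts ran from 19011151 to 21653867 per library at 5 mg/L, from 15835744 to 17480371 at 2 mg/L, from 16083833 to 16880989 at 10 mg/L and from 19490723 to 21160462 in the controls. All 5 mg/L libraries were thus deeper than all 2 mg/L libraries. The labels used here give no sequencing run, so a run that went with this difference in depth cannot be told apart from the dose. Of the 5 mg/L libraries, replicate 2 stood apart: in the clusters averaging at least 10 CPM over both doses, its median difference from each of the other 8 libraries at 5 mg/L, 2 mg/L and in the controls was 0.58 to 0.718 on the log2 scale, against 0.526 between replicates 1 and 3. After removal of low counts 57151 clusters with 98.6% of the counts were tested. The common biological coefficient of variation, the model's measure of spread between libraries of a group, was 1.12.

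Few clusters differed between the doses beyond that spread, and each of those few was at the control level at one dose and nearly or wholly missing at the other. By edgeR's quasi-likelihood test with Benjamini-Hochberg adjustment 6 of the tested clusters (0.0105%) were called, 4 higher (0.007%) and 2 lower (0.0035%) at 5 than at 2 mg/L. The 4 that were higher had few or no counts at 2 mg/L and were near the control level at 5 mg/L. The 2 that were lower had no counts at 5 mg/L and were near the control level at 2 mg/L. In 5 of the 6 clusters, the dose that departed had 0 counts in all 3 libraries. The spread took in the controls, so clusters with steady controls were the more readily called.

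Cluster-27942.49753 was the most abundant of the called clusters, with an implied length of 1292 bases, the length that the deposited counts and FPKM (counts scaled by length and depth) give together. It had 45.2, 42.0 and 59.5 CPM (counts relative to the library total, after TMM scaling) at 5 mg/L, against 1.07, 1.35 and 1.48 CPM at 2 mg/L. The controls had 33.7, 41.0 and 60.0 CPM, so they overlapped the 5 mg/L libraries and lay far above every 2 mg/L library. The mean was 48.9 ± 9.33 CPM at 5 mg/L and 1.30 ± 0.209 CPM at 2 mg/L (SD, n = 3 each), 37.6-fold higher at 5 mg/L. The fitted log2 fold change was 5.23 with a standard error of 0.45 (edgeR adjusted p = 0.0109). Against the controls the log2 fold change was 0.12 at 5 mg/L (standard error 0.37, edgeR adjusted p = 1.0) and -5.10 at 2 mg/L (standard error 0.44, edgeR adjusted p = 0.0137).

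Cluster-27942.44902 was missing at 2 mg/L. This cluster, with an implied length of 4499 bases, had 15.9, 20.1 and 9.45 CPM at 5 mg/L, from 309, 452 and 187 counts, against 0 counts in all 3 libraries at 2 mg/L. The controls had 23.2, 17.1 and 10.2 CPM and overlapped the 5 mg/L libraries. With a floor of 3 counts over the 3 libraries at 2 mg/L, which is 0.0597 CPM, the level was at least 253-fold higher at 5 mg/L (edgeR adjusted p = 0.0109). Against the controls, edgeR's adjusted p was 1.0 at 5 mg/L and 0.0137 at 2 mg/L.

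Both other clusters that were higher, described by length alone, showed the same order. One, of 1813 bases, had 13.2, 19.2 and 11.7 CPM at 5 mg/L, against 0 counts in every 2 mg/L library, while its controls had 16.6, 9.32 and 11.8 CPM. It was at least 246-fold higher at 5 mg/L (edgeR adjusted p = 0.0109). The other, of 2851 bases, had 4.37, 3.56 and 4.90 CPM at 5 mg/L, no counts (0) at 2 mg/L and, in the controls, 2.48, 4.41 and 2.59 CPM. It was at least 71-fold higher at 5 mg/L (edgeR adjusted p = 0.0109). In both, the controls overlapped the 5 mg/L libraries, and in both the 2 mg/L level was also called lower than the controls (edgeR adjusted p = 0.0150 each). Per length, in deposited FPKM at 5 mg/L, the order of the 4 was 37.9 ± 8.82 for Cluster-27942.49753, 8.16 ± 2.43 for the cluster of 1813 bases and 3.37 ± 1.23 for Cluster-27942.44902 (SD, n = 3), with the cluster of 2851 bases lowest at 1.29 to 1.79.

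Both clusters that were lower were missing at 5 mg/L. Cluster-27942.52098, with an implied length of 1199 bases, had 0 counts in all 3 libraries at 5 mg/L, against 5.92, 5.08 and 6.73 CPM at 2 mg/L, from 105, 83 and 109 counts. The controls had 6.74, 7.29 and 3.55 CPM and overlapped the 2 mg/L libraries. With a floor of 3 counts over the 5 mg/L group, 0.0486 CPM, the 5 mg/L level was lower by a factor of at least 121 (edgeR adjusted p = 0.0169). Cluster-27942.52617, of 1117 bases, had 0 counts at 5 mg/L, against 4.34, 2.08 and 3.95 CPM at 2 mg/L. Its controls had 3.22, 3.45 and 3.72 CPM, within the 2 mg/L range, and its level at 5 mg/L was lower by a factor of at least 71 (edgeR adjusted p = 0.0109). For both clusters 2 mg/L did not differ detectably from the controls (edgeR adjusted p = 1.0 each), and for 5 mg/L against the controls edgeR's adjusted p was 0.0510 each, just short of the threshold.

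**Figure D1:**
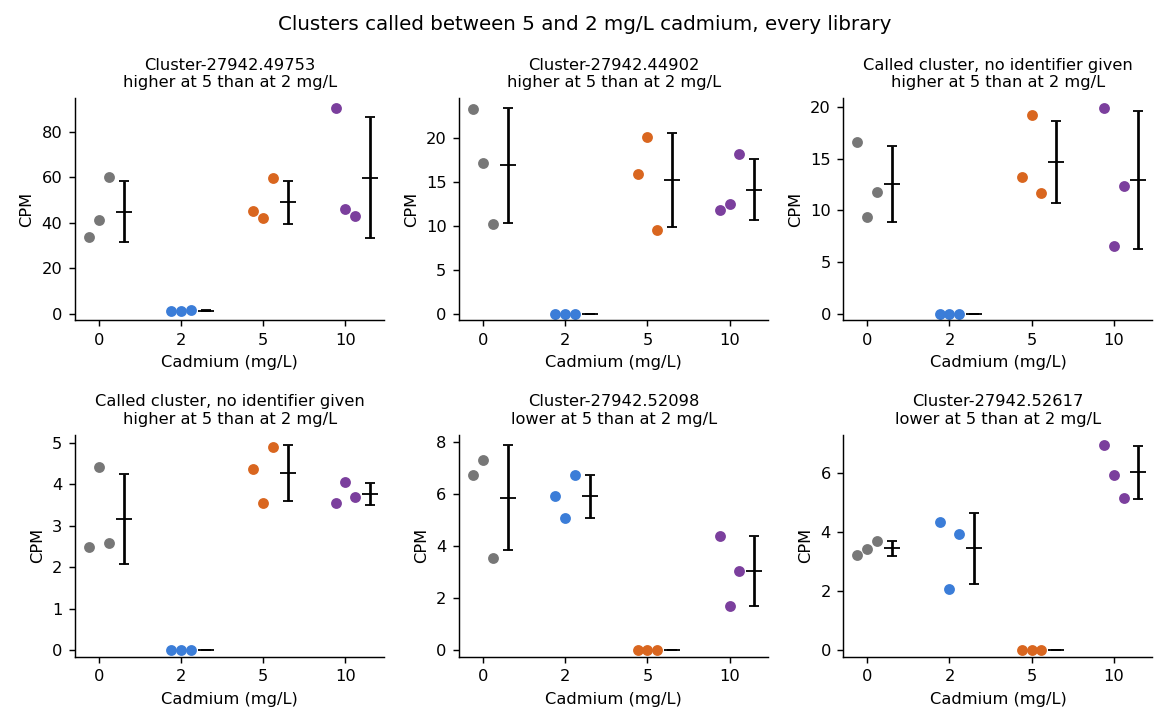
CPM (y axes, linear, each panel with its own scale) of the 6 clusters called between 5 and 2 mg/L, against the cadmium dose in mg/L (x axes), with 1 point per library and the mean with SD (n = 3) beside the points. In 4 panels the 2 mg/L libraries lie at or near 0 while the 5 mg/L libraries lie among the controls, and in 2 panels the 5 mg/L libraries are at 0 while the 2 mg/L libraries lie among the controls.

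Adjusted p stayed close to the threshold when a library was left out. The count of calls moved with the library left out and with the number of clusters tested. The low-count filter, applied anew, passed more clusters then. Calls rose to 14 without 2 mg/L replicate 2, 10 without 5 mg/L replicate 3 and 7 without 5 mg/L replicate 2. In such fits none (0) of the 6 was called when replicate 1 at 5 mg/L (65553 clusters tested), replicate 1 at 2 mg/L (68494) or replicate 3 at 2 mg/L (69389) was left out, with edgeR adjusted p from 0.0549 to 0.0834. With the original 57151 clusters tested, 5 of the 6 were called in each of these fits, with edgeR adjusted p from 0.0419 to 0.0636 for the 6. The cluster lost in each was Cluster-27942.52098. The fold of Cluster-27942.49753 hardly moved, with a log2 fold change from 5.06 to 5.33 over the 6 fits on those clusters, each leaving out 1 library. With any other of the compared libraries left out, all 6 were called on the same clusters. With all libraries thinned to 15835655 counts, which removes the difference in depth, the same 6 were called. By edgeR 3 of the 6 were called with no filter on low counts, 1 of the 6 when the 10 mg/L libraries were left out of the model and 0 of the 6 when only the compared libraries were fitted. DESeq2 called 1155 clusters between the doses, these 6 among them, and limma-voom 10, with 3 of the 6 among them.

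Just past the threshold stood 7 more clusters with an edgeR adjusted p from 0.0922 to 0.0941. Of these, 4 were higher and 3 lower at 5 mg/L. Each of the 7 had 0 counts in all 3 libraries of one dose and counts in all 3 controls. The spread of the model came from all 12 libraries, so clusters whose controls were split were less likely to come this close. Of the clusters found only at 5 or only at 2 mg/L, chosen below without the controls, 24.5% and 16.5% had counts in all 3 controls.

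**Figure D2:**
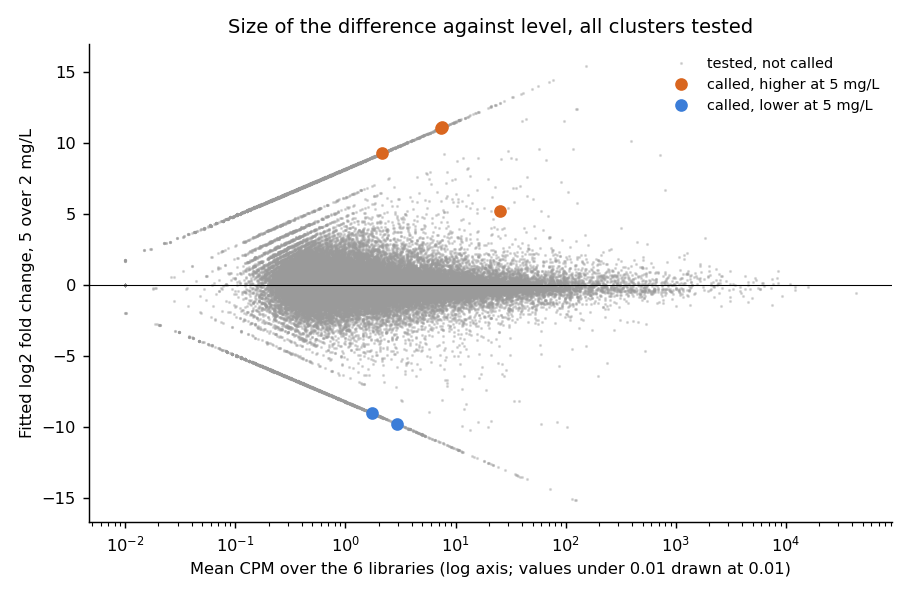
Fitted log2 fold change of 5 over 2 mg/L (y axis) against the mean CPM over the 6 libraries (x axis, log scale) for the 57151 clusters tested, with the called clusters enlarged. The straight bands at the top and bottom are clusters with 0 counts in all 3 libraries of one dose, where 5 of the 6 calls lie, and Cluster-27942.49753, at a log2 fold change of 5.23, stands apart from them.

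Absence from all libraries of one dose was not limited to the called clusters. Of the 176325 clusters listed, 323 (0.183%) had at least 10 counts in all 3 libraries at 5 mg/L and 0 in all 3 at 2 mg/L, and 218 (0.124%) had the opposite pattern. The 5 mg/L libraries were the deeper ones, and after thinning to one total the numbers were 252 and 213. Of the 323 found at 5 mg/L only, 79 (24.5%) had counts in all 3 controls and 38 (11.8%) in no control. Of the 218 found at 2 mg/L only, 36 (16.5%) had counts in all 3 controls and 43 (19.7%) in no control. The remaining 206 and 139 had counts in 1 or 2 controls, so for most of these clusters the unexposed libraries did not share 1 state. Clusters with no count at all in the controls or at 10 mg/L numbered 12 among those found at 5 mg/L only and 14 among those found at 2 mg/L only.

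Presence also varied among libraries of a dose. Of the 7197 tested clusters averaging 10 CPM or more over the 6 libraries, 614 (8.53%) had 0 counts in 1 or 2 of the 3 libraries at 5 mg/L, 582 (8.09%) at 2 mg/L and 715 (9.93%) in the controls. Those with 0 counts in all 3 libraries numbered 36 at 5 mg/L, 47 at 2 mg/L and 39 in the controls.

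The quartiles of the difference of mean log2(CPM + 0.5), 5 minus 2 mg/L, were -0.36 and 0.47 around a median of 0.041. The median was 0.042 with library size alone and 0.040 after thinning. The difference was over 2-fold in 5567 clusters higher and 4475 lower at 5 mg/L. Unadjusted p was under 0.05 for 3337 clusters by edgeR (5.84%), of which 2094 were higher (3.66%) and 1243 lower (2.17%). With no difference in any cluster and evenly spread p-values, about 2858 would be expected. In 51.3% of these 2094 the 2 mg/L group was at 0, and in 56.3% of these 1243 the 5 mg/L group was at 0. Among all clusters tested those shares were 4.91% and 3.09%.

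The libraries of the doses did not overlap in 7246 clusters (12.7% of those tested): all 5 mg/L libraries lay above all 2 mg/L libraries in 3932 (6.88%) and below them in 3314 (5.8%). With 3 libraries against 3 and no ties, order alone keeps the groups apart with a probability of 0.1, both directions together. The share over all clusters is thus not far from what order alone would give, and overlap alone cannot tell which clusters go beyond it. Ties, as between libraries at 0 counts, lower that probability. The balance of the directions changed with the level. Among the 26057 clusters under 1 CPM, 1958 (7.51%) lay higher and 983 (3.77%) lower at 5 mg/L. Among the 23897 at 1 to 10 CPM the directions were close, with 1549 (6.48%) higher and 1588 (6.65%) lower. Among the 6080 clusters at 10 to 100 CPM more lay lower, 643 (10.6%) against 333 (5.48%) higher. Among the 973 at 100 to 1000 CPM 76 (7.81%) lay higher and 96 (9.87%) lower. Among the 144 clusters over 1000 CPM, 16 (11.1%) lay higher and 4 (2.78%) lower. At 10 to 100 CPM the numbers were 309 and 586 with library size alone in place of TMM and 312 and 576 after thinning. Over 1000 CPM they were 13 and 3 under both, so the order of the directions held in these classes. These scalings act on whole libraries and cannot remove a shift that depends on level. The median difference over all clusters of a class was 0.106 under 1 CPM and 0.003 at 1 to 10 CPM. It was -0.106 at 10 to 100 CPM, -0.082 at 100 to 1000 CPM and 0.076 over 1000 CPM. Whether the balance goes beyond these shifts of whole classes was not tested.

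The clusters that lay lower at mid levels did so by smaller steps. At 10 to 100 CPM the median difference of mean log2(CPM + 0.5) was 1.19 for those higher at 5 mg/L and -0.78 for those lower. The median coefficient of variation between libraries in this class was 36.8% at 5 mg/L and 29.2% at 2 mg/L. Implied length took no part in choosing these clusters, and it varied with level, so its medians are given by class of level and with no test. Under 1 CPM the median was 841 bases for clusters higher at 5 mg/L, 994 bases for those lower and 1145 bases for the whole class. At 1 to 10 CPM these medians were 1217, 1788 and 1654 bases, and at 10 to 100 CPM they were 1068, 2017 and 1853 bases. At 100 to 1000 CPM they were 871, 1885 and 1170 bases, and over 1000 CPM 849, 777 and 805 bases. The clusters higher at 5 mg/L thus had the shorter median in the 4 classes up to 1000 CPM and the longer one over 1000 CPM.

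**Figure D3:**
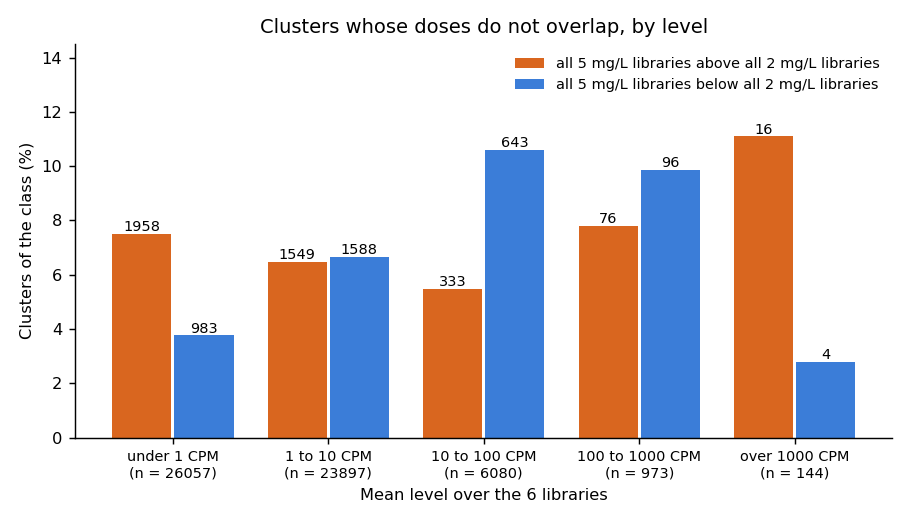
Percentage of clusters (y axis) in which all 3 libraries at 5 mg/L lay above, or all below, the 3 at 2 mg/L, in 5 classes of the mean CPM over the 6 libraries (x axis), with the number of clusters over each bar. Clusters lying lower at 5 mg/L were the more frequent at 10 to 100 CPM (643 against 333), and clusters lying higher were the more frequent over 1000 CPM (16 against 4).

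The most abundant clusters included no call. Their median coefficient of variation over 1000 CPM was 33.8% at 5 mg/L and 37.4% at 2 mg/L, against 62.1% at 5 mg/L and 57.4% at 2 mg/L over all clusters tested. None of the 20 clusters over 1000 CPM whose doses did not overlap was called (smallest edgeR adjusted p = 0.822). The 16 that lay higher at 5 mg/L had fitted log2 fold changes from 0.53 to 3.30 with a median of 1.0, and the 4 that lay lower from -1.45 to -0.22. The most abundant of the 16, the 7th of all tested clusters by level, had 9310, 13478 and 11529 CPM at 5 mg/L, against 7222, 4412 and 5494 CPM at 2 mg/L. Its controls had 8410, 9557 and 14431 CPM, within or beside the 5 mg/L range and above every 2 mg/L library. The log2 fold change was 1.0 with a standard error of 0.37 (edgeR adjusted p = 0.822).

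The 11th of all tested clusters by level was the most abundant of those lying lower. It had 5564, 2647 and 4196 CPM at 5 mg/L, against 10991, 5872 and 15797 CPM at 2 mg/L, a log2 fold change of -1.40 with a standard error of 0.50 (edgeR adjusted p = 0.822). Its controls, at 13160, 9026 and 4991 CPM, overlapped both doses. The 45th cluster by level also lay lower at 5 mg/L. The level of the 11th was 2.68 to 3.41 times that of the 45th in each of the 12 libraries, and whether they share reads was not tested.

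In 12 of the 16 abundant clusters that lay higher at 5 mg/L the control mean was nearer 5 than 2 mg/L. The controls did not overlap the 5 mg/L libraries in 1 of them, and they lay clear of 2 mg/L in 8. Over all clusters tested, controls did not overlap 5 mg/L in 12.3% and 2 mg/L in 15.3%, but a choice of clusters whose doses do not overlap itself raises such shares. A closer set is the 92 non-overlapping clusters of at least 100 CPM lying higher. In it the controls were apart from 5 mg/L only in 14.1%, from 2 mg/L only in 35.9% and from both in 5.43%. Of the 4 that lay lower, the control mean was nearer 5 mg/L in 2 and nearer 2 mg/L in 2, and the controls lay clear of 5 mg/L in 0 and of 2 mg/L in 1. The cluster apart from its controls at 5 mg/L, of 2074 bases, had 2438, 3863 and 2316 CPM at 5 mg/L, against 749, 704 and 1879 CPM at 2 mg/L, and 1132, 1245 and 1373 CPM in the controls.

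Some abundant clusters differed more widely, with libraries of a dose far apart. Among clusters averaging at least 100 CPM whose doses did not overlap, the 4 with the largest difference of mean log2(CPM + 0.5) in each direction are given in order, a choice made after the values were seen. None of these 8 was called between the doses, and their edgeR adjusted p is given with each.

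Of those higher at 5 mg/L, the first, of 1406 bases, had 4804, 1983 and 3178 CPM at 5 mg/L, against 1004, 0.551 and 8.15 CPM at 2 mg/L, and 1117, 2380 and 4629 CPM in the controls (edgeR adjusted p = 0.855). Its controls overlapped 5 mg/L and lay above every 2 mg/L library, which themselves were far apart. The second, of 696 bases, had 207, 2151 and 7.22 CPM at 5 mg/L, against 0.846, 0.245 and 0.988 CPM at 2 mg/L, and 0.652, 24.7 and 2.42 CPM in the controls, which overlapped both doses (edgeR adjusted p = 0.693). The third, of 780 bases, had 436, 0.134 and 487 CPM at 5 mg/L, against 0 counts in all 3 libraries at 2 mg/L, and 186, 345 and 246 CPM in the controls (edgeR adjusted p = 0.563). In it 5 mg/L replicate 2 was nearly missing, and the other 5 mg/L libraries lay above the controls. The fourth, of 1018 bases, had 869, 468 and 466 CPM at 5 mg/L, against 0, 61.2 and 47.4 CPM at 2 mg/L, and 0.0435, 0 and 0 CPM in the controls (edgeR adjusted p = 0.822). In it 5 mg/L lay farther from the unexposed level than 2 mg/L did (edgeR adjusted p = 0.344 for 5 mg/L against the controls).

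Of those lower at 5 mg/L, the first, of 3346 bases, had 0 CPM in all 3 libraries at 5 mg/L, against 350, 113 and 280 CPM at 2 mg/L, and 0, 454 and 0 CPM in the controls (edgeR adjusted p = 0.822). The controls were thus split, with 2 of 3 at 0. The second, of 761 bases, had 0, 0.579 and 0 CPM at 5 mg/L, against 54.6, 308 and 254 CPM at 2 mg/L, and 0.695, 0.169 and 1.35 CPM in the controls, which overlapped 5 mg/L (edgeR adjusted p = 0.822). The third, of 1742 bases, had 0, 30.5 and 0 CPM at 5 mg/L, against 539, 730 and 114 CPM at 2 mg/L, and 45.4, 0 and 0 CPM in the controls, below every 2 mg/L library (edgeR adjusted p = 0.903). The fourth, of 992 bases, had 420, 0 and 0.0505 CPM at 5 mg/L, against 528, 1725 and 520 CPM at 2 mg/L, and 0.565, 648 and 643 CPM in the controls, which overlapped both doses (edgeR adjusted p = 1).

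Which dose departed from the unexposed level was then read over all clusters, and the values did not settle whether 1 dose held the departures. The comparisons share the controls, so their values are given side by side. At 5 mg/L against the controls edgeR called 0 clusters (0%), with 3149 (5.51%) at an unadjusted p under 0.05, while DESeq2 called 963 and limma-voom 4. At 2 mg/L against the controls edgeR called 5 (0.00875%), 1 higher (0.00175%) and 4 lower (0.007%), and 3716 (6.5%) had an unadjusted p under 0.05, while DESeq2 called 1260 and limma-voom 5. The count of edgeR calls at 2 mg/L was 0 when 2 mg/L replicate 3, control replicate 1 or control replicate 2 was left out and the filter applied anew. On the original 57151 clusters it was 0 without 2 mg/L replicate 3 (adjusted p of the 5 at 0.0511) or control replicate 2 (0.0611 to 0.0633), 9 without control replicate 1, the 5 among them, and 3 without control replicate 3, with 2 of the 5 among them. It was 14 without 2 mg/L replicate 1 and 20 without 2 mg/L replicate 2, the 5 among both. The 4 that were lower were the 4 clusters described above as higher at 5 than at 2 mg/L. Groups did not overlap in 12.3% of tested clusters at 5 mg/L against the controls and in 15.3% at 2 mg/L against the controls. With no ties, order alone gives a probability of 0.1.

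Among the 7246 clusters whose doses did not overlap, the mean of the controls was nearer 5 mg/L in 3893 (53.7%) and nearer 2 mg/L in 3353. Over all clusters tested the control mean was nearer 5 mg/L in 51.8%. The control mean lay between those of the doses in 4702 clusters (64.9%), beyond 5 mg/L in 1434 (19.8%) and beyond 2 mg/L in 1110 (15.3%). Over all clusters tested these shares were 33.9%, 34.7% and 31.1%, and the choice of clusters whose doses do not overlap itself favours a control mean in between. The 3 controls were apart from 5 mg/L only in 1537 clusters (21.2%) and from 2 mg/L only in 2011 (27.8%). Over all clusters tested these shares were 7.99% for 5 mg/L and 11% for 2 mg/L. A dose whose libraries are wider apart overlaps the controls more readily. At 10 CPM or more the median coefficient of variation was 36.1% at 5 mg/L and 29.8% at 2 mg/L. How far this moved the shares was not tested, so they do not show that 2 mg/L departed more. By direction, the control mean was nearer 5 mg/L in 52.1% of the clusters lying higher and in 55.7% of those lying lower at 5 mg/L.

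The shares of controls apart from 1 dose only differed between levels, also over all clusters tested. Over all clusters averaging 10 CPM or more they were 9.3% for 5 mg/L and 14.7% for 2 mg/L, and over all at 100 CPM or more 8.24% for 5 mg/L and 13.8% for 2 mg/L. For non-overlapping clusters lying lower at 5 mg/L, the control libraries stood apart from 5 mg/L only in 18.5% and from 2 mg/L only in 31.2%. For those lying higher the shares were 23.5% for 5 mg/L and 24.8% for 2 mg/L. Among clusters averaging 10 CPM or more, the directions were close, with 21.7% for 5 mg/L and 32.7% for 2 mg/L in those lying lower, and 21.2% for 5 mg/L and 31.3% for 2 mg/L in those lying higher. At 100 CPM or more, the shares were 21% for 5 mg/L and 30% for 2 mg/L in those lying lower, and 14.1% for 5 mg/L and 35.9% for 2 mg/L in those lying higher. The differences between these shares were not tested.

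In some clusters the doses lay on opposite sides of the controls. Every 5 mg/L library lay above and every 2 mg/L library below all controls in 60 clusters (0.105% of those tested), and the reverse held in 50 (0.0875%). EdgeR called 0 of these 110 between the doses, 63 of them had an unadjusted p under 0.05, and DESeq2 called 49 of them.

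**Figure D4:**
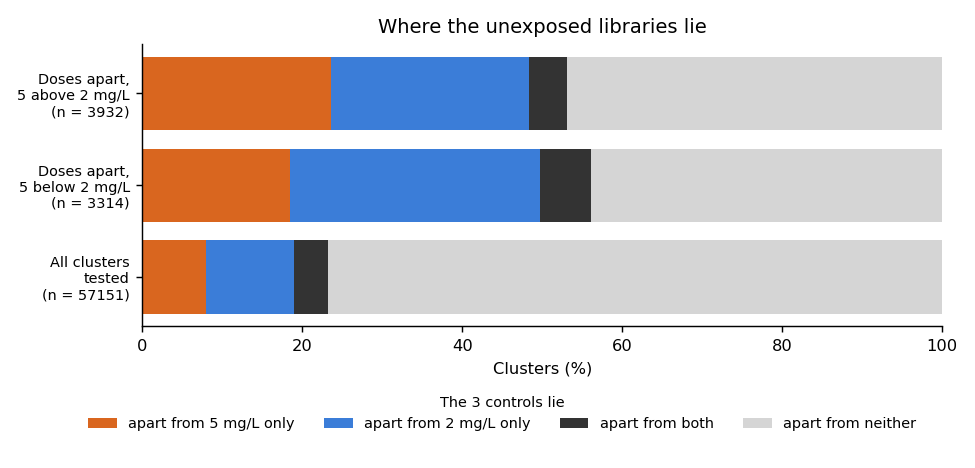
Percentage of clusters (x axis) by where the 3 controls lay: apart from the 5 mg/L libraries only, from the 2 mg/L libraries only, from both or from neither, where apart means that no library overlaps. For clusters whose 5 mg/L libraries lay below the 2 mg/L libraries, the controls were apart from 5 mg/L only in 18.5% and from 2 mg/L only in 31.2%. The shares also depend on the spread within each dose.

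The libraries were also compared as wholes. Averaged over pairs, the Spearman correlation of cluster levels was 0.571 for the 9 pairs of a 5 and a 2 mg/L library, 0.583 for pairs of a 5 mg/L library and a control, and 0.580 for pairs of a 2 mg/L library and a control. The difference of these last means, 0.0026, turned to -0.0074 without 5 mg/L replicate 1, -0.0027 without 2 mg/L replicate 3 and -0.0019 without control replicate 3, so its sign turned with single libraries. Libraries at 2 mg/L were alike among themselves (0.625 to 0.635 in 3 pairs), those at 5 mg/L less so (0.568 to 0.606), and the controls lay between (0.602 to 0.622). In the 7197 clusters with at least 10 CPM, 2 libraries differed by a median of 0.573 on the log2 scale within 5 mg/L, 0.468 within 2 mg/L and 0.480 within the controls, and by 0.581 between the doses. One library carried much of this spread at 5 mg/L. The pairs of 5 mg/L replicate 2 with its own replicates had correlations of 0.568 and 0.572, against 0.606 for replicates 1 and 3, within the range of the controls. Without 5 mg/L replicate 2, the mean median difference was 0.530 between the doses (6 pairs) and 0.526 for the remaining pair at 5 mg/L, and the mean correlation between the doses was 0.578. These correlations share clusters and libraries and are given as a description.

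**Figure D5:**
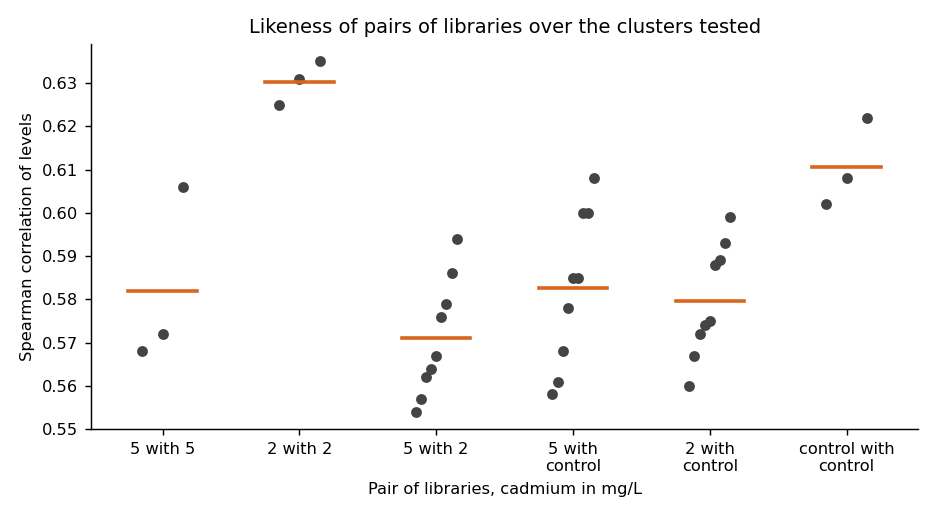
Spearman correlation of cluster levels (y axis) for each pair of libraries, by the groups of the pair (x axis, cadmium in mg/L), with 1 point per pair and a line at the mean. The 3 pairs within 2 mg/L lie highest (0.625 to 0.635), and the pairs within 5 mg/L (0.568 to 0.606) overlap the pairs of a 5 and a 2 mg/L library (0.554 to 0.594).

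More clusters were detected at 5 mg/L. With at least 1 count there were 105151, 105509 and 101491 clusters at 5 mg/L, against 98213, 94905 and 88136 at 2 mg/L, and the groups did not overlap. The difference of means, 10299 clusters, had the smallest p that 3 libraries against 3 can give (two-sided exact permutation test, p = 0.1). The controls had 106924, 97218 and 98269 clusters and overlapped those of both doses. After thinning to one total the difference was 7152 clusters (exact permutation p = 0.1), and for clusters with at least 10 counts it was 2674 after thinning (exact permutation p = 0.3). The 1000 most abundant clusters held 70.9% ± 1.38 of counts at 5 mg/L and 70.8% ± 2.89 at 2 mg/L (SD, n = 3 each, exact permutation p = 0.9).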

How the data were processed

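RNA-seq of hepatopancreas was analysed. RNA came from frozen tissue by Tri Reagent and was made into Illumina libraries, per the labels' protocols. The authors deposited 2 values per cluster and library: a read count, which its decimals and unequal totals show to be an estimated count without normalization, and FPKM, named in the file headers. Of the nonzero counts 58.0% are whole as deposited. How the decimals arose was not tested, and values of clusters with similar sequences are uncertain. How reads were assembled, aligned and counted is not given in the sources used here.

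Samples were grouped by title. Counts were rounded, filtered by filterByExpr (minimum count 10, minimum total 15) and scaled by TMM, and edgeR 4.0.16 fitted a quasi-likelihood model to all 12 libraries with 1 coefficient per group. The standard error of a log2 fold change is its size over the square root of F. A call needs a Benjamini-Hochberg adjusted p under 0.05 over all 57151 clusters. Levels are CPM with a pseudocount of 0.5 where logged. Folds against a group at 0 use a floor of 3 counts over that group, which covers counting error only. Implied length was the median over libraries with at least 10 counts. At most 2 identifiers a direction are named, the called ones with the highest mean CPM over both doses. Thinning drew counts without replacement. Alternatives were DESeq2 1.42.0, limma-voom 3.58.1, other scalings and filters, other sets of libraries, thinning, the replicate block and each library left out. Software was Python 3.11.15 with scipy 1.17.1, pandas 2.3.3, numpy 2.4.6 and matplotlib 3.10.9, and R 4.3.3. The comparison, rules and tests were chosen with earlier results of these data known.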

Additional observations from a re-analysis of the deposited data

Results flagged for a closer look

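Cluster-27942.49753, Cluster-27942.44902, Cluster-27942.52098 and Cluster-27942.52617 stand out because the effects of 5 and of 2 mg/L against the same controls differed by a test of the difference itself, the contrast of the doses. Their fitted log2 fold changes of 5 over 2 mg/L were 5.23, 11.12, -9.76 and -8.99 by edgeR, and the last 3 depend on the prior count, since one dose was at 0. Every 5 mg/L library lay above and every 2 mg/L library below all controls in 60 clusters (0.105% of those tested), and the reverse held in 50 (0.0875%). EdgeR called 0 of these 110 between the doses, and order alone also gives some such clusters. At 10 mg/L, a dose outside this comparison, Cluster-27942.52617 averaged 6.04 CPM ± 0.895 (SD, n = 3), and each of those libraries was above all 3 controls.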

How the results depend on the processing

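Left-out libraries for the clusters not overlapping and for calls on the same clusters, and thinning and library size for the side of the controls, were added after the data were seen. Where no reason is given for a shift, its cause was not tested. Between 5 and 2 mg/L, DESeq2 called 1155 clusters, limma-voom 10 (3 of the 6 among them), no low-count filter 3 and the 9 libraries without 10 mg/L 1. At 2 mg/L against the controls DESeq2 called 1260 and the 9 libraries 2, against 5 as reported. At 5 mg/L against the controls DESeq2 called 963, limma-voom and the filter of 5 CPM 4 each, DESeq2 size factors 2 and the 9 libraries 1, against 0. Each of the 3 comparisons had 0 calls when fitted to its own 6 libraries. Such a fit has fewer residual degrees of freedom and its own filter, scaling and spread, and these were not tested apart. A replicate block also gave 0 calls in each comparison. The labels used here do not say whether equal numbers mark pairs. Over 9 pairs of same-numbered libraries the correlation of their deviations from group means was -0.043 to 0.023. A correlation over all clusters cannot exclude pairing that acts on some of them. Library size alone and thinning left the 6 calls as they were. With each library of a comparison left out and the filter applied anew, calls ran from 0 to 14 between 5 and 2 mg/L, from 0 to 16 at 2 mg/L against the controls and from 0 to 1 at 5 mg/L against the controls. With the 57151 clusters kept they ran from 6 to 18, from 0 to 20 and from 0 to 1. No named cluster changed direction in any setting. Over the alternatives, adjusted p ran up to 0.26 for Cluster-27942.49753, Cluster-27942.44902 and Cluster-27942.52617 and to 0.316 for Cluster-27942.52098. The filter of 5 CPM in 3 libraries, passed by 15447 clusters, left 894 lying higher and 1415 lower at 5 mg/L, so the balance turned from higher to lower. Before it, those lying higher were the more frequent under 1 CPM (1958 against 983) and those lying lower at 10 to 100 CPM (643 against 333). Beyond this dependence on level, the cause was not tested. Leaving out a library gave 6167 to 7529 lying higher and 5624 to 6172 lying lower, as fewer libraries overlap less often. Clusters found at 5 mg/L only and at 2 mg/L only numbered 578 and 355 at 5 counts and 169 and 120 at 20 counts, and with a library left out 565 to 747 and 414 to 479. The difference in clusters detected kept its direction in all 8 settings. The percentage of counts held by the 1000 top clusters, 5 minus 2 mg/L, was 0.10 percentage points and turned to -0.30 for the top 100. With libraries left out it ran from -1.57 (without 2 mg/L replicate 1) to 0.98, and was -0.68 without 5 mg/L replicate 1. Controls were nearer 5 mg/L in 55.1% of clusters of at least 10 CPM and, with each control left out, in 52.1% to 53.6%. Depth was 15835744 to 21653867 counts, and after thinning 3479 clusters lay higher and 2955 lower, against 3932 and 3314 as reported.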

Other observations

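The 10 mg/L libraries entered the comparison of 5 with 2 mg/L only through the filter, the scaling and the spread of the model. They had counts in all 3 libraries for each of the 6 called clusters. Cluster-27942.49753 had 90.4, 46.2 and 43.0 CPM there, and Cluster-27942.44902 had 11.8, 12.4 and 18.1 CPM, both overlapping the controls. Cluster-27942.52098 had 4.37, 1.69 and 3.04 CPM at 10 mg/L, also overlapping the controls. The losses seen at 2 or at 5 mg/L in these clusters were thus not seen at the highest dose, and the values follow no order of dose. Since the spread of the 10 mg/L libraries entered the model, clusters with even levels at that dose were the more readily called. Without those libraries 1 of the 6 was called. The levels at 10 mg/L are therefore not independent of the choice of these clusters.

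DESeq2 called 732 clusters higher and 423 lower at 5 than at 2 mg/L, all 6 clusters called by edgeR among them. In 65.4% of those higher and 65.7% of those lower the other dose was at 0 in all 3 libraries. The control mean was nearer 5 than 2 mg/L in 71.3% of those higher and in 34.3% of those lower. At an unadjusted edgeR p under 0.05 these shares were 61% and 42.8%, and over all clusters tested the share was 51.8%. It was 52.1% of those higher and 55.7% of those lower among clusters whose doses did not overlap, so the split seen with DESeq2 calls was not seen there. The controls entered the spread in the DESeq2 and edgeR fits, so clusters with steady controls were the more readily chosen. The shares by these tools are therefore not independent of the choice, and how far it moved them was not tested. The abundant cluster of 1018 bases described above, at 869, 468 and 466 CPM at 5 mg/L, had 0.221, 0.169 and 0.592 CPM at 10 mg/L, close to its controls.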
